A study of Homo sapiens with 12 samples.

Results

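Of the 20256 protein-coding genes off the Y chromosome in the deposited table of 48162 genes, 8 were counted almost only in the libraries labelled methotrexate. These were PTGDS, FCN1, C11orf96, C14orf180, DPT, BHMT2, MFAP5 and INHBA. They were chosen on their raw counts: at least 2000 in each of the 3 methotrexate libraries and at most 3 in all over the other 9, with the gene families whose symbols start with COL, HOX, CYP, SLC, ITG, LAM, KRT, ZNF or HIST left out. The difference between the methotrexate libraries and the rest is therefore how the genes were found, and it is described below without a test. PCDH18 and ADAMTS2, which had been proposed as examples of the pattern, missed the limit with 4 and 6 counts outside, and their values are given with those of other genes near the limits.

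The libraries came from Caco-2, a long-established line from a human colorectal adenocarcinoma whose cells resemble absorptive enterocytes. Passage 26 cells were embedded in Matrigel and grown for 5 days with 20% fetal bovine serum, without a change of medium, so that spheroids formed. All groups shared this culture. Exposure lasted 4 h and was to carrier fluid as control, to methotrexate, an antifolate drug, to lactoferrin, a milk protein that binds iron, or to methotrexate and lactoferrin together. Each of the 4 groups had 3 libraries of total RNA. Neither the doses nor whether the 3 libraries stem from separate cultures is given in the sources used here, so p-values measure the spread between these libraries, which may be technical. In bulk RNA, fewer cells of a type and less RNA per cell cannot be told apart.

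The 8 genes belong to different biochemical systems. PTGDS makes prostaglandin D2 and is also a secreted lipocalin, and FCN1 (M-ficolin) is a lectin that recognises microbial surfaces and starts the lectin pathway of complement. DPT (dermatopontin) and MFAP5 are secreted into connective tissue matrix, and INHBA is the subunit of activin A, a ligand of the TGF-beta family. Adipose tissue, whose markers are read below, holds lipid-storing adipocytes among matrix-producing fibroblast-like cells, vessels and immune cells.

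The methotrexate libraries stood apart from the other 9 as a whole, and their adipocyte markers, described below, go against the label of a colorectal epithelial line. Whether these libraries come from the labelled samples was not tested, and "with methotrexate" refers to the label. They held 47459811, 60591667 and 57029030 counts, against 18714054 to 23859094 in the other 9. With methotrexate, 10791 of 16733 tested genes were called against control (64.5%; edgeR quasi-likelihood test, Benjamini-Hochberg adjusted), 5922 of them higher (35.4%) and 4869 lower (29.1%). The other comparisons with the same control libraries gave 5 called genes with both agents (0.0299%) and 0 with lactoferrin alone, where 628 genes had an unadjusted p under 0.05 and DESeq2 called 1. Scaling the libraries to 22 epithelial genes instead moved the median log2 change of all genes with methotrexate from 0.03 to 0.91, and the text gives the second value where it turns a direction. The 8 genes rest on the 3 methotrexate libraries.

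RefSeq start-site sequences (GRCh38.p14, not the hg19 build of the counts) were matched by symbol for 6 of the 8 genes. The 100 bases just before each start are shown because they separate BHMT2 from the rest in CG content. They run 5′ to 3′ on the strand of the gene, with each CG in capitals.
PTGDS: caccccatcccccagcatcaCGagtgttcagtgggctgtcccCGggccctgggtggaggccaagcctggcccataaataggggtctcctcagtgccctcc
FCN1: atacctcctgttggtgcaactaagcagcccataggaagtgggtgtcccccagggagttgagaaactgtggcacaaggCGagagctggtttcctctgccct
C14orf180: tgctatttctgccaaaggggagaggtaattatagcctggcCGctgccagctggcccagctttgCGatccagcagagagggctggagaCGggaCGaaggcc
DPT: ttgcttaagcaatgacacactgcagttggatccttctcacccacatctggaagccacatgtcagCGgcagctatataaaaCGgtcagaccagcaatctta
INHBA: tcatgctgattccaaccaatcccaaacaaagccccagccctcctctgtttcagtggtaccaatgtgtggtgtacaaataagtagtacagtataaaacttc
BHMT2: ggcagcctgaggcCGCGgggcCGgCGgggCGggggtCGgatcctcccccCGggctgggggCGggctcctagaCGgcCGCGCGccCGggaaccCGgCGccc
The PTGDS window is chr9:136977404-136977503 on the plus strand, and the FCN1 window is chr9:134917913-134918012 on the minus strand. The C14orf180 window is chr14:104579664-104579763 on the plus strand, and the DPT window is chr1:168729207-168729306 on the minus strand. The INHBA window is chr7:41703091-41703190 on the minus strand, and the BHMT2 window is chr5:79069667-79069766 on the plus strand. BHMT2 has 15 CG in these 100 bases, whereas INHBA has 0, FCN1 1, PTGDS and DPT 2 each and C14orf180 4.

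Over 300 bases, from 250 before the start to 50 after it, the ratio of observed to expected CG was 0.794 for BHMT2 and 0.0716 to 0.434 for the other 5. The median of the 6 was 0.171, against 0.763 over the entries of 15842 coding genes. A ratio under 0.6 was found in 5 of 6, against 34.2% of all, and the shorter window of 100 bases gave 5 of 6 against 34.5%. GC content was less far apart, at a median of 59.7% against 62.7%. The letters TATAAA, on either strand, were present in DPT, starting 27 bases before the start, and in INHBA, starting 11 bases before it, and in 9.63% of all entries. The letters TTNNGNAA, the core read by C/EBP factors, were in 4 (PTGDS, FCN1, DPT and INHBA), against 30.5% of all, and the AP-1 letters TGANTCA were in 0 of 6 against 5.75%. CCAAT was found in 2 (FCN1 and INHBA) against 36.4%, and GGGCGG in 2 (C14orf180 and BHMT2) against 58.5%. These are matches of letters in short windows of 6 genes, and no binding was measured.

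PTGDS (ENSG00000107317, hg19 chromosome 9, 139871956 to 139879887, plus strand) had 4798, 6045 and 6311 counts in methotrexate libraries 1, 2 and 3. Outside them it had 3 counts, 1 each in control 3, methotrexate with lactoferrin 2 and lactoferrin 3. As CPM, the usual count scale relative to library size, here with edgeR's normalisation factors, the methotrexate libraries stood at 118, 117 and 125, a mean of 120.3 ± 4.37 (SD, n = 3). The 3 values are close to each other, and each is far above the single stray counts elsewhere. The ratio to the other 9 libraries was 7877, with a 95% counting interval of 2695 to 38199 that covers counting error only.

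Per kilobase, PTGDS was the highest of the 8, at 122 ± 4.42 RPKM (CPM per kilobase of gene length; SD, n = 3), which ranked 502 among coding genes in the methotrexate libraries. Other enzymes of the same route were taken as a small list after the values had been seen. The cyclooxygenases, which make the substrate of PTGDS, rose with methotrexate: PTGS1 from 0.761 to 10.2 CPM (log2 change 3.72 ± 0.30, SE) and PTGS2 from 0.712 to 24.8 CPM (5.10 ± 0.24). HPGDS, the other prostaglandin D synthase, had 4 counts in the methotrexate libraries, all in library 2, and 9 outside them. No library held more than 4 counts of HPGDS.

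FCN1 (ENSG00000085265, chromosome 9, 137801431 to 137809809, minus strand) had 3930, 4962 and 4772 counts with methotrexate and 0 in each of the other 9 libraries. Its levels of 96.9, 96.2 and 94.7 CPM differed by the smallest relative spread of the 8 genes, a coefficient of variation (SD over mean) of 1.16%. Against the limit that a count of 0 allows, taken as 3 counts over the 9 libraries together, FCN1 was at least 6274-fold higher. At 74.6 ± 0.864 RPKM it was the second of the 8 per kilobase.

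The other ficolins were near the floor. FCN2, whose gene lies next to FCN1 on the left in hg19, had 14, 15 and 15 counts with methotrexate and 0 outside. FCN3 had 3, 2 and 2, and 2 counts outside. Of the ficolins, FCN1 alone was above 15 counts in any library.

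FCN1 is best known from monocytes and neutrophils, so the other markers of these cells are given beside it. FCGR3B was at 0 in all 12 libraries. In the methotrexate libraries S100A8 had 0 to 1 counts, S100A12 0 to 2, MNDA 0 to 1, CD300E 0 to 2 and FPR1 4 to 8. CXCR2 reached 46 to 57 counts, with 0 outside. LYZ (lysozyme) fell from 17.3 to 7.47 CPM and S100A9 from 3.32 to 1.83, although with scaling to epithelial genes the S100A9 change was 0.032 on the log2 scale. Apart from FCN1, which was chosen on this difference, 4 of the list were tested, of which CXCR2 rose and LYZ and S100A9 fell. The summed level of the list went from 20.6 to 22.3 CPM in control to 106 to 108 with methotrexate, most of it FCN1 itself.

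DPT and MFAP5 are matrix proteins of connective tissue: DPT binds decorin and collagen fibrils, and MFAP5 is a glycoprotein of elastic microfibrils. DPT (ENSG00000143196, chromosome 1, 168664697 to 168698502, minus strand) had 2594, 2921 and 3068 counts with methotrexate. MFAP5 (ENSG00000197614, chromosome 12, 8789942 to 8815484, minus strand) had 3119, 4238 and 3716. Both were at 0 in all 9 other libraries, so that the groups were separated by the whole range of counts. DPT stood at 60.5 ± 3.67 CPM, at least 3941-fold above the floor, and MFAP5 at 77.6 ± 4.26 CPM, at least 5085-fold. Per kilobase DPT was at 33.9 ± 2.05 RPKM and MFAP5 at 27.3 ± 1.5.

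MFAP2, the relative of MFAP5 in the same microfibrils, was expressed in every group. It went from 31.9 ± 2.17 CPM in control to 39.8 ± 2.80 with methotrexate, a log2 change of 0.32 ± 0.13 (SE; adjusted p = 0.0456, edgeR quasi-likelihood test, Benjamini-Hochberg adjusted). With scaling to epithelial genes the change was 1.20 ± 0.12. MFAP2 was thus counted in all 12 libraries and MFAP5 in the 3 with methotrexate. FBN1, the main fibrillin of microfibrils, rose from 0.559 to 301 CPM (9.06 ± 0.20).

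INHBA (ENSG00000122641, chromosome 7, 41724712 to 41742706, minus strand) had 2558, 2585 and 3039 counts with methotrexate and 1 count elsewhere, in methotrexate with lactoferrin 3. The CPM values were 63.1, 50.1 and 60.3, a mean of 57.8 ± 6.81. INHBA has the longest transcript of the 8 (6064 bases in the table), and per kilobase it was the lowest, at 9.54 ± 1.12 RPKM, rank 6054 among coding genes.

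The inhibin and activin family was read beside INHBA. INHBB, the other widely expressed beta subunit, was present in all groups and rose from 4.04 to 12 CPM (1.58 ± 0.17, adjusted p = 7.34e-07, edgeR quasi-likelihood test, Benjamini-Hochberg adjusted). FST (follistatin), which binds and blocks activins, had 2280, 1949 and 2282 counts with methotrexate and 5 outside, close to the rule. INHA, the alpha subunit that turns activins into inhibins, was at 2.06 CPM in control and 1.72 with methotrexate (−0.27 ± 0.32), and INHBE at 1.26 and 0.862 (−0.54 ± 0.39), neither of which passed the test. With scaling to epithelial genes these were 0.62 ± 0.32 and 0.34 ± 0.39. INHBA and FST were thus both nearly confined to the methotrexate libraries, whereas INHBB, INHBE and INHA were counted in all groups.

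BHMT2 transfers a methyl group from S-methylmethionine to homocysteine, which makes methionine. The gene (ENSG00000132840, chromosome 5, 78365540 to 78385289, plus strand) had 2255, 3449 and 2878 counts with methotrexate and 1 outside, in control 3. The CPM values were 55.6, 66.9 and 57.1, with library 2 highest (59.9 ± 6.13), and the level per kilobase was 29.2 ± 2.99 RPKM. Its neighbour and close paralog BHMT, which uses betaine, had 11, 7 and 20 counts with methotrexate and 2 outside. DMGDH, which oxidises the product that betaine leaves, overlaps BHMT2 on the opposite strand. It rose from 0.129 to 14.2 CPM (6.73 ± 0.33), and since the strand setting of the counting is not given, reads shared between DMGDH and BHMT2 cannot be told apart.

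C14orf180, known as NRAC for its expression in adipose tissue and heart, encodes a small membrane protein. It is on chromosome 14 (ENSG00000184601, 105046021 to 105056852, plus strand) and had 3840, 4762 and 4249 counts with methotrexate. Outside it had 2 counts, both in lactoferrin 1. The CPM values were 94.7, 92.4 and 84.3 (90.5 ± 5.42), and the level per kilobase was 35.5 ± 2.12 RPKM. TMEM179 overlaps it on the other strand but had 20 counts in the 3 methotrexate libraries together.

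C11orf96 (ENSG00000187479, chromosome 11, 43946892 to 43965888, plus strand) was the most uneven of the 8. It had 3126, 3122 and 5243 counts with methotrexate, and 1 count each in control 2 and lactoferrin 2. In CPM these were 77.1, 60.5 and 104, so that library 3 was well above library 2, and the coefficient of variation was 27.3%. The level per kilobase was 43.9 ± 12 RPKM, which overlaps that of C14orf180 and DPT within its spread.

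**Figure D1:**
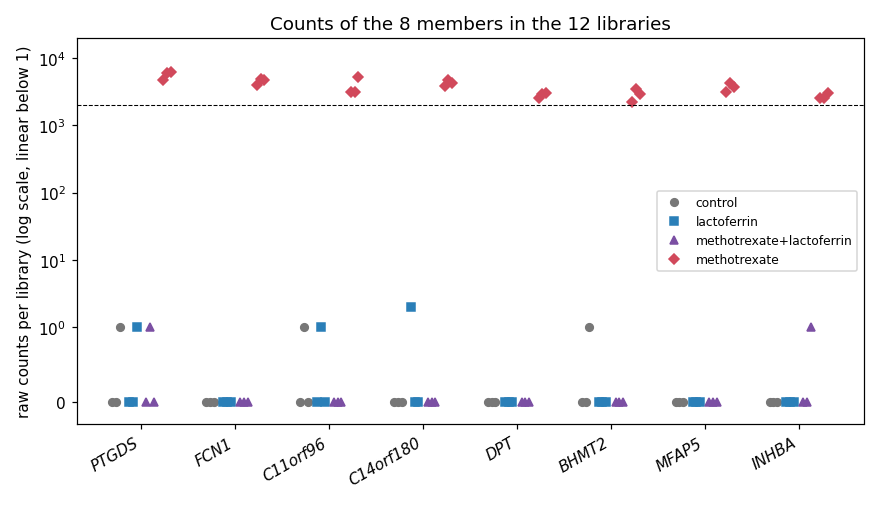
Raw counts of the 8 genes in each of the 12 libraries on a log axis, by group. The methotrexate libraries lie between 2255 and 6311, and the highest count in any other library is 2.

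By level per kilobase the order was PTGDS, FCN1, C11orf96, C14orf180, DPT, BHMT2, MFAP5 and INHBA. PTGDS, FCN1 and INHBA were each separated from their neighbours by more than the spread. From C11orf96 to MFAP5, each gene lay within the summed SDs of the next, so that adjacent places in this stretch are not resolved. Some genes further apart were, such as C14orf180 (35.5 ± 2.12 RPKM) and DPT (33.9 ± 2.05) above MFAP5 (27.3 ± 1.5).

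Together the 8 genes took 26220, 32084 and 33276 counts in methotrexate libraries 1, 2 and 3, which is 0.0552, 0.0530 and 0.0583% of each library. In each of the other 9 libraries their sum was between 0 and 2 counts. The 9 stray counts were spread over 7 libraries and belonged to 5 genes, while FCN1, DPT and MFAP5 had none. The libraries exposed to methotrexate with lactoferrin held 2 of the 9. Read in this way, "confined" holds down to a few counts in totals of 18714054 and more per library.

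The 3 methotrexate libraries gave nearly the same level for most of the 8. Their coefficients of variation had a median of 6.03% (1.16 to 27.3%), against 6.64% over 2219 coding genes of the same CPM range (57.8 to 120.3), where the range from the 5th to the 95th percentile was 1.61 to 22.1%. C11orf96 was above that range and FCN1 below it, and 61 of the 2219 genes were more uneven than C11orf96. No library was low throughout: the lowest value of a gene was in library 1 for 1 gene, in library 2 for 4 genes and in library 3 for 3. The rule itself asked for a minimum count in each of these libraries, so genes low in a single library could be removed by it. TWIST1 (1935 counts in library 1) and ADAMTS5 (1492) were left out in this way. The comparison genes were taken by CPM range. The evenness of the 8 may therefore partly follow from how they were chosen, and was not tested apart from that choice.

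**Figure D2:**
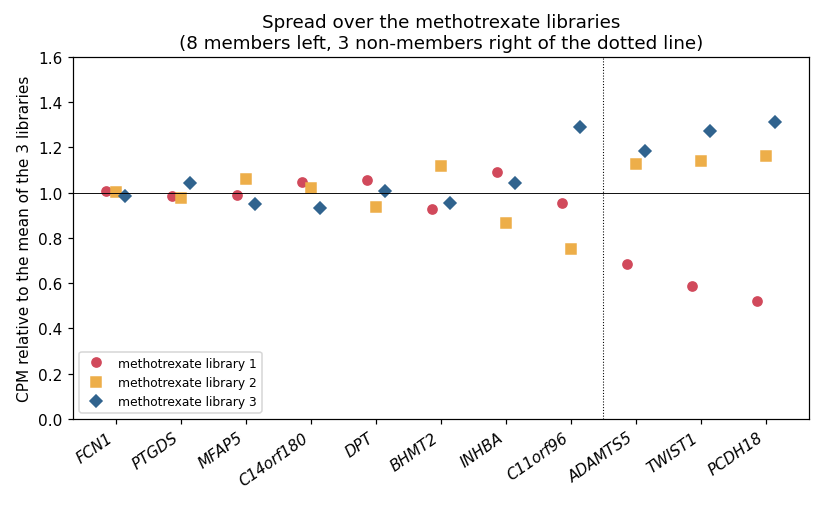
Level of each gene in the 3 methotrexate libraries relative to its own mean, for the 8 genes (left of the dotted line) and 3 genes that missed a limit (right). The 8 cluster around 1 apart from C11orf96 (0.752 to 1.29), whereas PCDH18, TWIST1 and ADAMTS5 are lowest in library 1 (0.523, 0.587 and 0.686). TWIST1 and ADAMTS5 missed the minimum count in library 1, so their contrast with the 8 partly follows from the rule. These 3 genes do not stand for all that missed a limit. The other genes nearest the limits were more even, with coefficients of variation from 0.289% (DCN) to 11.2% (DTX1).

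Genes just outside the limits show how the thresholds cut. PCDH18, a protocadherin of mesenchymal cells, had 4 counts outside and 3725, 10517 and 11616 with methotrexate, so that library 1 was at 0.523 of the mean. ADAMTS2, which trims procollagen, had 6 outside (4 in methotrexate with lactoferrin 3 and 2 in lactoferrin 3) and 6643, 7204 and 7214 with methotrexate. DCN, PDE1B, DTX1 and ZEB2 had 5 outside each. DCN (decorin) was the most even, at 128 ± 0.370 CPM.

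On the other limit, TWIST1, a mesenchymal transcription factor, had 1935, 4768 and 5211 counts with methotrexate and 1 outside. EBF1, a factor of adipocyte and B cell development, came next with 1786, 2170 and 2152, and BMPER, a secreted regulator of BMP signals, with 1722, 1981 and 2086, both with 0 outside. The members just inside were BHMT2 (lowest count 2255), INHBA (2558) and DPT (2594) on this limit, and PTGDS (3 outside), C11orf96 and C14orf180 (2 each) on the first. COL15A1 (6067, 6722 and 6630 with methotrexate, 0 outside) and ITGBL1 (2230, 2520 and 2446, 1 outside) met both limits and were left out by name.

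The limits pick a sparse corner of the table. At least 2000 counts in each methotrexate library were found for 4650 coding genes, and at most 3 counts outside for 4023. Of the 4023, 3903 had fewer than 100 counts in their lowest methotrexate library, 110 had at least 100 and under 2000, of which 17 had at least 1000, and 10 had 2000 or more before names were left out. The 8 genes passed the filter on low counts through the methotrexate libraries alone, and all 8 were called higher against control, where 35.4% of tested genes were. This follows from the way they were chosen.

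**Figure D3:**
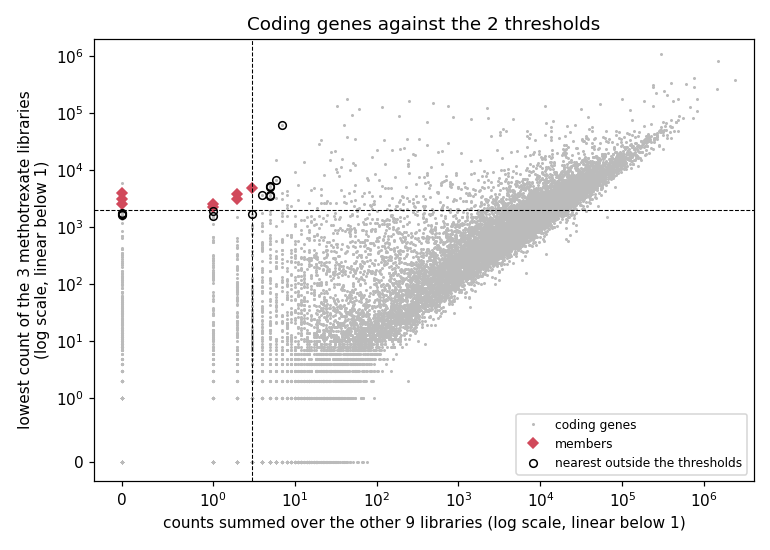
Coding genes by their counts summed over the 9 other libraries (horizontal) and their lowest methotrexate count (vertical), both on log axes that are linear below 1, with the limits as dashed lines. The 8 genes (red) sit above 2000 and at 3 or below, and open circles mark the genes nearest across a line.

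A total of 721 other coding genes had all of their counts in the methotrexate libraries, mostly at low levels. Ranked by level per kilobase, the 5 leading ones were TWIST2, COL15A1, CDR1, CADM3 and TNFAIP6. TWIST2, a relative of TWIST1, stood at 30.7 ± 3.01 CPM and COL15A1, a basement membrane collagen, at 137 ± 10.8. TNFAIP6, which modifies hyaluronan matrix, was at 16.3 ± 3.61 CPM, and CADM3, a cell adhesion molecule, at 43.5 ± 2.03. CDR1 was at 31.7 ± 5.27 CPM, and its locus also gives a circular RNA that these counts do not separate.

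The 8 genes lie on 7 chromosomes. FCN1 and PTGDS share chromosome 9 but are 2062 kb apart. Their 16 nearest coding neighbours that do not overlap them were mixed: of 10 tested, 5 rose (OLFM1, INF2, ARSB, RIMKLB and GLI3) and 3 fell (XCL1, ATP1B1 and C7orf10), with a median log2 change of 0.24. Of all tested genes 35.4% rose and 29.1% fell, so these few counts do not set the neighbours apart. OLFM1 (2 counts outside) and GLI3 (15) passed the filter only through the methotrexate libraries. With scaling to epithelial genes XCL1 and C7orf10 turned to 0.06 and 0.45, and ATP1B1 was at −0.22 from −1.11. GLI3, a hedgehog effector beside INHBA, rose by 8.84 ± 0.40 on the log2 scale to 21.8 CPM, and RIMKLB beside MFAP5 by 5.25 ± 0.20 to 40.1 CPM. ALKBH3, 5.076 kb from C11orf96, was at 16.5 CPM in control and 15.4 with methotrexate (−0.10 ± 0.12, and 0.79 ± 0.13 with scaling to epithelial genes). It was called higher with that scaling only. The antisense gene INHBA-AS1 had 98 counts, all in the methotrexate libraries, and LCNL1, which overlaps PTGDS on the same strand, had 1.59 CPM. Reads of such overlapping genes cannot be told apart without the counting rules.

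To see which tissue markers shared the pattern, 20 lists of cell type markers were read in the same fit. Of the 8 genes, 4 are on a list: DPT and MFAP5 with fibroblasts and stroma, C14orf180 with adipocytes and FCN1 with monocytes and neutrophils. The lists were drawn up with results of these data known, so their counts describe the libraries and are not independent evidence. Among marker genes that are neither among the 8 nor epithelial, 108 of 200 were tested, 78 rose and 15 fell with methotrexate, against 35.4% and 29.1% of all genes. Some of them passed the filter on low counts only through the methotrexate libraries, such as LEP and CIDEA (1 count outside each) and TWIST2 (0). Their rise follows from how they entered the test, and the counts of single lists below share this limit. The same lists had 0 called genes with both agents and 0 with lactoferrin by edgeR's quasi-likelihood test, with 13 and 7 at an unadjusted p under 0.05, and DESeq2 called 0 and 0. Of all 16733 tested genes, 5 (0.0299%) and 0 were called in these comparisons, so 0 on the lists does not set the markers apart from other genes. Markers with 0 counts in all the libraries compared could not be called. The 3 comparisons share the control libraries.

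Adipocyte markers rose together. Apart from C14orf180, which was chosen on this difference, all 17 tested of 19 rose, with a median log2 change of 8.22, against 0.03 over all genes. Some of the 17, such as LEP, CIDEA and TUSC5, passed the filter only through the methotrexate libraries. ADRB3 was at 0 in all libraries. FABP4, a fatty acid carrier, went from 0.619 to 4926 ± 466 CPM, LPL, which releases fatty acids from lipoproteins, from 0.477 to 3093 ± 147, and GPD1, which makes glycerol phosphate, from 12.1 to 2917 ± 131. The summed list was at 84.0 to 88.0 CPM in control and 19918 to 20755 with methotrexate. LEP (leptin) was low, at 5.64 ± 1.18 CPM, and KLB, GPD1, LIPE and CIDEC were above 10 CPM in control too.

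Brown fat markers were present at lower levels. Of 6, 4 were tested, having passed the filter through the methotrexate libraries, and rose. The other 2 were near the floor, ZIC1 with 14 counts with methotrexate and 24 outside and LHX8 with 3 and 1. UCP1, which uncouples respiration to make heat, went from 0.082 to 15.6 ± 2.09 CPM, and DIO2, which activates thyroid hormone, from 0 to 16.2 ± 5.31. CIDEA, which is on the adipocyte list too, was at 1.47 CPM. The summed list ran from 0.0845 to 0.281 CPM in control and from 34.0 to 41.6 with methotrexate.

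Fibroblast and stroma markers, the list that holds DPT and MFAP5, rose in 12 of 13 tested without these 2 genes, with a median log2 change of 6.35. CCDC80 rose from 5.91 to 481 ± 9.18 CPM (6.35 ± 0.14). FBLN1, a secreted matrix protein, was abundant in control at 877 CPM and fell to 472 (−0.90 ± 0.10), and with scaling to epithelial genes its change was −0.01. The summed level was 931 to 1038 CPM in control and 2498 to 2560 with methotrexate. Of this list FBLN1, FBLN2 and PDGFRB were above 10 CPM in control. SFRP2, SFRP4, OGN and PI16, which also mark fibroblasts, had 4 to 31 counts in each methotrexate library, and C7 29 to 71.

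Mesenchymal patterning factors, which mark where in the body a connective tissue cell comes from, rose in 11 of 13 tested of 18, with a median of 8.05 (7.35 with genes absent from control set at 3 counts over the control group). Some of them, such as TBX5, TBX18 and TWIST2, passed the filter only through the methotrexate libraries. TWIST1 reached 81.2 ± 29.5 CPM, PRRX1, a limb and lateral plate factor, 39.3 ± 1.19, and TBX15 and EN1 23.6 ± 2.43 and 12.6 ± 0.335. PITX1 was at 95.4 CPM in control and fell to 46.3 (−1.04 ± 0.18, and −0.16 ± 0.18 with scaling to epithelial genes). The summed list was at 82.2 to 111 CPM in control, most of it PITX1, and at 258 to 286 with methotrexate.

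Smooth muscle and pericyte markers rose in 10 of 11 tested of 14, with a median of 5.39. MCAM, an adhesion molecule of pericytes that other cells make too, went from 2.78 to 505 ± 9.04 CPM (7.5 ± 0.17), and CSPG4 from 2.04 to 162 ± 19.8 (6.31 ± 0.19). Of the contractile genes, ACTA2 (smooth muscle actin) rose from 0.0294 to 32.1 ± 3.29 CPM, with 1339 to 1795 counts per methotrexate library, and TAGLN from 8.99 to 111 ± 5.87. SYNPO2 had 1199 to 1695 counts per methotrexate library and CNN1 227 to 246. Others were low, with 63 to 80 counts of MYH11, 12 to 25 of DES and, for the pericyte gene RGS5, 27 to 46. RGS5 was at 0.0850 CPM in control, 0.733 with methotrexate and 0.601 with both agents, where it was not called. NOTCH3 was at 213 CPM in control and 161 with methotrexate, which did not pass the test (adjusted p = 0.0675, edgeR quasi-likelihood test, Benjamini-Hochberg adjusted). With scaling to epithelial genes its change turned to 0.49 on the log2 scale and was called higher. The summed list was at 184 to 250 CPM in control and 944 to 1077 with methotrexate.

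Vessel markers were scarce. Blood endothelium markers rose in 6 of 8 tested of 14 listed, with a summed level of 27.1 to 36.0 CPM in control and 37.8 to 41.3 with methotrexate, led by EGFL7. EGFL7 went from 27.9 to 20.7 CPM, where it fell by 0.43 on the log2 scale, which turned to 0.45 with scaling to epithelial genes. FLT1, a VEGF receptor, rose from 0.231 to 5.54 ± 1.21 CPM, VWF (von Willebrand factor) from 1.68 to 4.14 ± 0.227 and CDH5, the defining cadherin, from 0.265 to 0.684 ± 0.063. Of the 2 lymphatic markers tested, RELN rose to 3.24 CPM and PROX1 fell from 31.7 to 16.2 (−0.09 on the log2 scale with scaling to epithelial genes), and CCL21 was at 0. The lymphatic list summed to 29.3 to 35.7 CPM in control and 19.4 to 20.2 with methotrexate.

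Macrophage markers gave 1 high gene. MARCO, a scavenger receptor, rose from 0.143 to 195 ± 5.93 CPM (10.36 ± 0.31), while MRC1 and VSIG4 were at 0 in all libraries. CD163 had 1 to 6 counts with methotrexate, F13A1 2 to 6, C1QB 0 to 3, MS4A4A 0 to 2 and C1QC 0 to 1. C1QA and MS4A7 were low but nearly confined to these libraries. C1QA had 15 to 39 counts in each and 1 outside, and MS4A7 8 to 18 and 0 outside. CD14, a lipopolysaccharide coreceptor, rose from 13.5 to 29.3 CPM (1.12 ± 0.13). CSF1R fell from 16.4 to 9.72 CPM and with scaling to epithelial genes stood 0.13 higher on the log2 scale. Of 4 tested of 14, 2 rose and 2 fell, and the summed list went from 31.2 to 34.2 CPM in control to 229 to 242, most of it MARCO. FCN1 and MARCO were thus each the highest gene of an immune list on which some markers were at or near 0 and others, CD14, CSF1R and LYZ, were counted in all groups.

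Blood cell, nerve and other lists stayed low. T and NK cell markers summed to 5.33 to 7.29 CPM in control and 13 to 15.8 with methotrexate. With both agents the sum was 9.31 to 10.5 CPM, above control as well, and with lactoferrin alone 5.02 to 7.08. None of the list was called in either of these comparisons. Of 6 tested, 4 were higher with methotrexate, among them GNLY at 3.51 CPM and IL7R at 3.31, and CD2 was at 0. GNLY was at 1.96 CPM with both agents and 0.743 in control. The T cell gene CD3G fell from 2.98 to 1.97 CPM (−0.60 ± 0.21), and CD8A did not pass the test (−0.17 ± 0.43). The change of CD3G with scaling to epithelial genes is not reported here. B and plasma cell markers summed to 3.26 to 3.72 CPM with methotrexate, led by PAX5, and mast cell markers to 8.47 to 11.0, led by GATA2, with MS4A2 at 0. HBB and AHSP were at 0 throughout, and the red cell and platelet list summed to 0.222 to 0.437 CPM with methotrexate and 0.384 to 0.592 in control. Schwann cell markers reached 13.2 to 15.3 CPM from 0.803 to 1.01, led by S100B (7.35 CPM).

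Of other mesenchymal and organ lists, CALB2 (calretinin), a calcium-binding protein of mesothelium and neurons, rose from 0.0320 to 62.1 ± 2.36 CPM and BNC1 to 7.61, whereas the mesothelial genes MSLN, WT1 and LRRN4 fell (0.07, −0.58 and −0.37 on the log2 scale with scaling to epithelial genes). On the cartilage and bone list ACAN, a proteoglycan, rose to 3.71 CPM, whereas COL2A1 fell from 258 to 120.02 CPM (−1.10 ± 0.14, and −0.21 with scaling to epithelial genes). The sum of that list was 229 to 281 CPM in control and 102 to 140.3 with methotrexate. On the stratified epithelium list KRT14, a basal keratin, rose to 13.5 CPM and DSC3 fell from 5.43 to 2.59 (−1.07 ± 0.17, and −0.19 with scaling to epithelial genes). TNNT3 rose and TTN fell by 0.44 on the log2 scale in the striated muscle list, TTN turning to 0.45 with scaling to epithelial genes, with MYL1 at 0. SCGB2A2, KLK3, SCGB1A1, UMOD and IVL were at 0 in all 12 libraries.

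**Figure D4:**
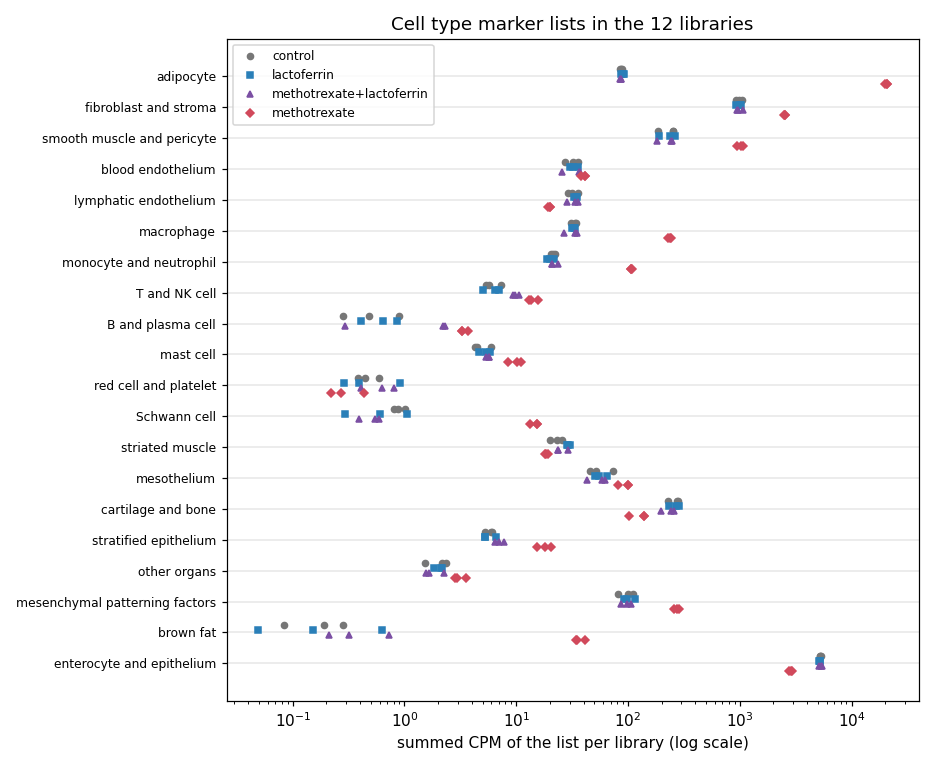
Summed CPM of each marker list in each of the 12 libraries, on a log axis, by group. The adipocyte, fibroblast, smooth muscle, macrophage, monocyte and brown fat lists are higher in the methotrexate libraries. So are the patterning factor, Schwann cell, stratified epithelium, T and NK cell, B and plasma cell, mast cell, mesothelium and other organ lists. The blood endothelium list is slightly higher and the striated muscle list slightly lower. The lymphatic and the cartilage and bone lists are lower, as is the enterocyte list (2781 to 2905 against 5185 to 5275 CPM in control).

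The summed markers of the line itself were lower in CPM but not in raw counts, although 8 of the 22 genes, among them VIL1 and CDX2, had fewer raw counts over the 3 methotrexate libraries than over the 3 control libraries. Of 21 tested enterocyte and epithelial genes, 19 fell and 2 (VILL and EPS8) rose, with a median log2 change of −1.0, and with scaling to these genes 1 fell and 4 rose. CDH1 changed by −1.0 ± 0.08, EPCAM by −1.03 ± 0.14 and VIL1 by −1.12 ± 0.10. The summed raw counts of the list were 117836, 146515 and 140090 with methotrexate, against 108152, 131230 and 124054 in control, which is 0.248, 0.242 and 0.246% of the totals with methotrexate and 0.532 to 0.550% in control. The adipocyte list held 834298, 1070205 and 1003460 counts with methotrexate, 1.76, 1.77 and 1.76% of the totals, and 1745 to 2190 in the others. What part of the levels of the 8 genes moves with these lists was not tested.

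**Figure D5:**
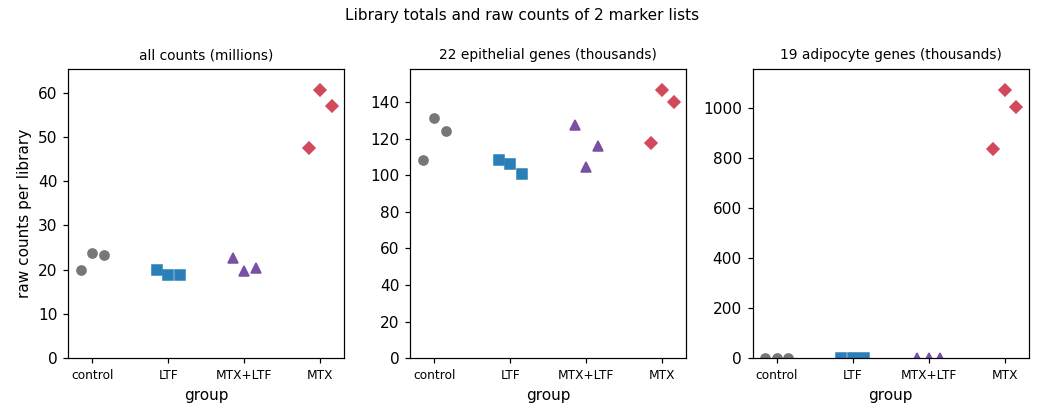
All counts, raw counts of the 22 epithelial genes and raw counts of the 19 adipocyte genes in each of the 12 libraries, by group (LTF lactoferrin, MTX methotrexate), on linear axes. The epithelial sums of the methotrexate libraries (117836 to 146515) lie near those of the other groups, whereas the totals are higher and the adipocyte sums are 834298 to 1070205 against 1745 to 2190.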

How the data were processed

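RNA from 12 samples in 4 groups was measured. The deposited table holds raw counts per gene; per the submitters' processing notes CASAVA, STAR, DESeq2 and hg19 were used. DESeq2 served their differential test per the labels' series text, and versions, counting program and strand setting were not stated. The gene length column was used for RPKM. Members and marker lists were chosen with earlier results of these data known.

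Counts were filtered (filterByExpr, 16733 genes), scaled by TMM and fitted in edgeR 4.0.16 (R 4.3.3) with 1 mean per group over all 12 samples. The quasi-likelihood test, Benjamini-Hochberg adjusted, was called under 0.05. A standard error is the absolute log2 change over the square root of F. The code was tested on simulated data. Library totals ran from 18714054 to 60591667, so 3 counts correspond to 0.152 to 0.0582 CPM (effective sizes).

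Named genes are the members, those nearest each limit, the 3 highest of each list, genes at 0 throughout, and 5 of like pattern, tied by level per kilobase (a tie-break added after seeing the data). Further list genes, relatives and neighbours were chosen after their values were seen. A symbol with 2 identifiers was read from its higher row, and PECAM1 was not used here. Single-gene values of a few list genes are not reported here. Promoters were matched by symbol, first entry. Alternatives were other limits, DESeq2 1.42.0, no filter, scaling to the epithelial list, a replicate block, the compared groups alone, the submitters' threshold (2-fold, 0.01) and leaving out each library.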

Additional observations from a re-analysis of the deposited data

How the results depend on the processing

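The set depends on its limits. Allowing 0 counts outside left 3 genes and up to 10 gave 23, while a minimum of 1000 gave 25 and of 5000 gave 0. The share of counts (0.0555%) became 0.0202, 0.320, 0.114 and 0%, and 0.0717% with all names kept (10 genes). Leaving out 1 library gave 8 to 14 genes (14 without methotrexate 1, adding ADAMTS5, CADM3, EBF1, MEDAG, TUB and TWIST1) and a share of 0.0541 to 0.209%. The share was 0.209% without control 1, when ADIPOQ, DCN and ZEB2 entered, 0.0873% without methotrexate with lactoferrin 3 and 0.0842% without methotrexate 1.

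Methotrexate against control gave 9984 to 10281 calls when 1 library was left out and 4525 at the submitters' threshold. Scaling to epithelial genes moved the median of all genes to 0.91 (log2) and gave 12446 calls, 12326 higher and 120 lower (99% higher, against 54.9%). It reversed EGFL7 (0.45), CSF1R (0.13), S100A9 (0.032) and TTN (0.45). The called falls of MSLN (0.07), XCL1 (0.06) and C7orf10 (0.45) turned too. NOTCH3, INHA, INHBE and ALKBH3, which were not called in the main fit, also changed sign. With this scaling NOTCH3 (0.49) and ALKBH3 (0.79) were called higher, whereas INHA and INHBE were not called. List genes higher ran from 77 to 97, where the 97 were of 183 tested with no filter.

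With both agents, 5 calls became 2 at the submitters' threshold, 15 by DESeq2, 38 with no filter, 0 in the compared groups alone and 0 to 8 without 1 library (0 without control 2, 3 without control 1 or combined-agent library 1, 8 without combined-agent library 3). With no filter, 5 list genes were called. Lactoferrin gave 1 call by DESeq2 and 17 with no filter, 2 of them on lists. With a replicate block the counts were 10371, 3 and 0, and 78 list genes rose with methotrexate. Same-numbered libraries did not deviate together (r from −0.216 to 0.118 over 18 pairs), so the numbers are not taken as pairs. Of the alternatives, 1001 gave the same result, 43 moved, 19 were weaker, 9 stronger and 4 reversed. The 4 are EGFL7, CSF1R, S100A9 and TTN, so the other genes that turned are not counted among them. Depth limits genes near 3 counts.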

Other observations

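Control 1 held more traces of abundant adipocyte genes than the other 8 libraries without methotrexate alone. FABP4 had 37 counts in control 1, against 0 to 3 in each of the others. LPL had 29 in control 1, against 0 to 2, and ADIPOQ 5, against 0 to 1. PLIN4 had 25 in control 1 and 5 to 16 in the others, and LGALS12 3 against 0 to 6, so these did not stand apart to the same degree. None of the 8 genes had a count in control 1. The genes were picked after their values were seen.

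The 5 genes called with both agents against control were VIM, LGALS1, AKAP12, FBN2 and MSN, none of them among the 8. Their log2 changes were 1.69, 1.53, 2.45, 3.83 and 2.14.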
